A study of Mus musculus with 4 samples.

Results

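Immediate early genes of the Fos, Jun and Egr families were followed in the mandible of mouse embryos after Bmp4 had been overexpressed. The members were Fos, Fosb, Fosl2, Jun, Junb, Jund, Egr1, Egr2, Atf3 and Ier2, and every probe that the platform annotation gave one of these symbols was taken, with old synonyms brought up to current symbols. All 10 genes were on the array. They were read by 12 of the 29922 probes, and the whole table named 16637 genes. Fos and Fosl2 had 2 probes each and the other 8 genes had 1 each.

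Total RNA came from whole embryonic mandibles at stage E11.5 on a C57BL/6 background. The 2 control arrays carried RNA of wild-type mandibles, and the 2 Bmp4 OE arrays carried RNA of mandibles with conditional Bmp4 overexpression, in which doxycycline had been given for 24 hours before collection. Each array was labelled with Cy5 and gave a normalised log2 intensity per probe, with the same minimum of 5.68, lower quartile of 6.79, median of 7.95 and maximum of 16 on all 4 arrays. The promoter or Cre line that drives the transgene, whether controls received doxycycline, and whether arrays of a group came from separate embryos are points the labels do not state. The p-values therefore describe the spread among these arrays, which may be technical, and effects of drug, genotype and Bmp4 cannot be told apart. Bmp4 itself read 11.96 and 12.07 on the control arrays and 15.27 and 15.31 on the overexpression arrays, a 9.68-fold difference (limma, adjusted p = 0.00137). All 8 mesenchyme markers measured, among them Prrx1, Twist1 and Pdgfra, lay above the array median. Of these 8, 1 rose and 3 fell in limma, with log2 fold changes of 1.17 for the homeobox gene Prrx2, -1.19 for Twist1, -0.56 for the collagen gene Col1a1 and -0.52 for the receptor gene Pdgfrb. By the same rule, an adjusted p under 0.05, 7.39% of all named genes rose and 9.54% fell.

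Immediate early genes are transcribed within minutes of a growth factor, stress or depolarisation signal, without new protein synthesis, and their RNAs are short-lived. Fos and Jun proteins pair through leucine zippers into AP-1, a transcription factor that binds DNA only as a dimer. Jun proteins can pair with each other or with Fos proteins, whereas Fos proteins need a Jun partner. Egr proteins are zinc finger factors that bind GC-rich sites. In many cells ERK kinases drive Fos and Egr1 through the factors SRF and ELK at CArG boxes, while JNK kinases act on Jun and ATF proteins. The same genes also respond to handling of tissue.

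Atf3, Junb and Jund rose, and none of the members fell. These 3 of the 12 probes had an adjusted p under 0.05 in limma, and 5 of the 12 had an unadjusted p under 0.05, as did 33.0% of all probes. By the same adjusted rule 14.8% of all probes were called, 6.39% higher and 8.41% lower. With 1 probe per gene, the brightest, 3 of the 10 genes were higher and 0 lower, while 16.9% of all 16637 named genes were called, 7.39% higher and 9.54% lower. Their median log2 fold change was 0.34, and that of all named genes was 0. No p was computed for the members as a group, since they were chosen with earlier results of these data known.

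To show where the members that rose begin, the 250 bases before the annotated start of transcription are printed for Atf3, Junb and Jund, and for Jun, whose fold change was near that of Jund. The sequences are from RefSeq on build GRCm38.p6, 5′ to 3′ along the gene, in lower case, with matches to any motif searched in capitals. Atf3 lies on the minus strand at chr1:191183334-191183583, Junb on the minus strand at chr8:84978749-84978998, Jund on the plus strand at chr8:70697489-70697738 and Jun on the minus strand at chr4:95052223-95052472.
Atf3: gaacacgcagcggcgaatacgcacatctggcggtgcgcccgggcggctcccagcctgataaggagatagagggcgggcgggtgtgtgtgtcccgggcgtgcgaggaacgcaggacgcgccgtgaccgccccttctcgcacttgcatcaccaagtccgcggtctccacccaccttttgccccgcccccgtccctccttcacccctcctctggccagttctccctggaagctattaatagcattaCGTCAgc
Junb: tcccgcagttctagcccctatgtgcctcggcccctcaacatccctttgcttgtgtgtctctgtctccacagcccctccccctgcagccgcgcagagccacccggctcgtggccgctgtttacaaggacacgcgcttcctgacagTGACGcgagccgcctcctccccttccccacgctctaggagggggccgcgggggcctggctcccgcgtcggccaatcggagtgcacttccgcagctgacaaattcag
Jund: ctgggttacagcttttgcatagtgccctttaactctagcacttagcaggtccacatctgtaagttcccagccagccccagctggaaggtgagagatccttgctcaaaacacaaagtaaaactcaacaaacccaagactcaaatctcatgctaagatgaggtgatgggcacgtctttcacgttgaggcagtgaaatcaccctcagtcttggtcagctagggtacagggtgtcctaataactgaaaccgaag
Jun: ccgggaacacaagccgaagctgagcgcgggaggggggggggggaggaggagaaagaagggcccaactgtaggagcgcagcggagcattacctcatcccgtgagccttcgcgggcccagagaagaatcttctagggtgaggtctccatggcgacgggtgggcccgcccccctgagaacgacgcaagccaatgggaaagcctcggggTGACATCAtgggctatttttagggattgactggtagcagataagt

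Motifs were searched on both strands of these windows. They were the cAMP response element core TGACG, the ATF site TGANGTCA, the AP-1 site TGANTCA, the EGR site GCGNGGGCG, the GC-rich BMP-SMAD site GGCGCC and the CArG box bound by SRF. An ATF site with C at its N also holds the core TGACG. Of the 10 members 8 had a window, and Egr1 and Ier2 are named only. Egr2 had 5 of the 12 member windows. A member is listed below if any of its windows held the motif, while the shares are over single windows. The core TGACG was found in the windows of Atf3, Junb, Fos, Fosb and Egr2, and 17.8% of all 32841 windows held it. In Atf3 it lay at positions -7 to -3, counted from -1 just before the start, and in Junb at -106 to -102. Of the member windows only that of Jun held the ATF site, at positions -45 to -38, against 7.49% of all windows. The GC-rich site GGCGCC was in the windows of Fos, Fosb and Fosl2 and in 9.59% of all windows, and the EGR site was in those of Fosb and Fosl2 and in 4.7% of all. The AP-1 site was in 0 of the member windows and in 6.75% of all windows, and the CArG box was in windows of Egr2 and in 1.47% of all. Sites further than 250 bases before the start, in Fos as in the other members, were not searched, and Egr1 had no window. The window of Jund held none of the 6 motifs. A match is a string of letters and does not show that a factor binds there.

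**Figure D1:**
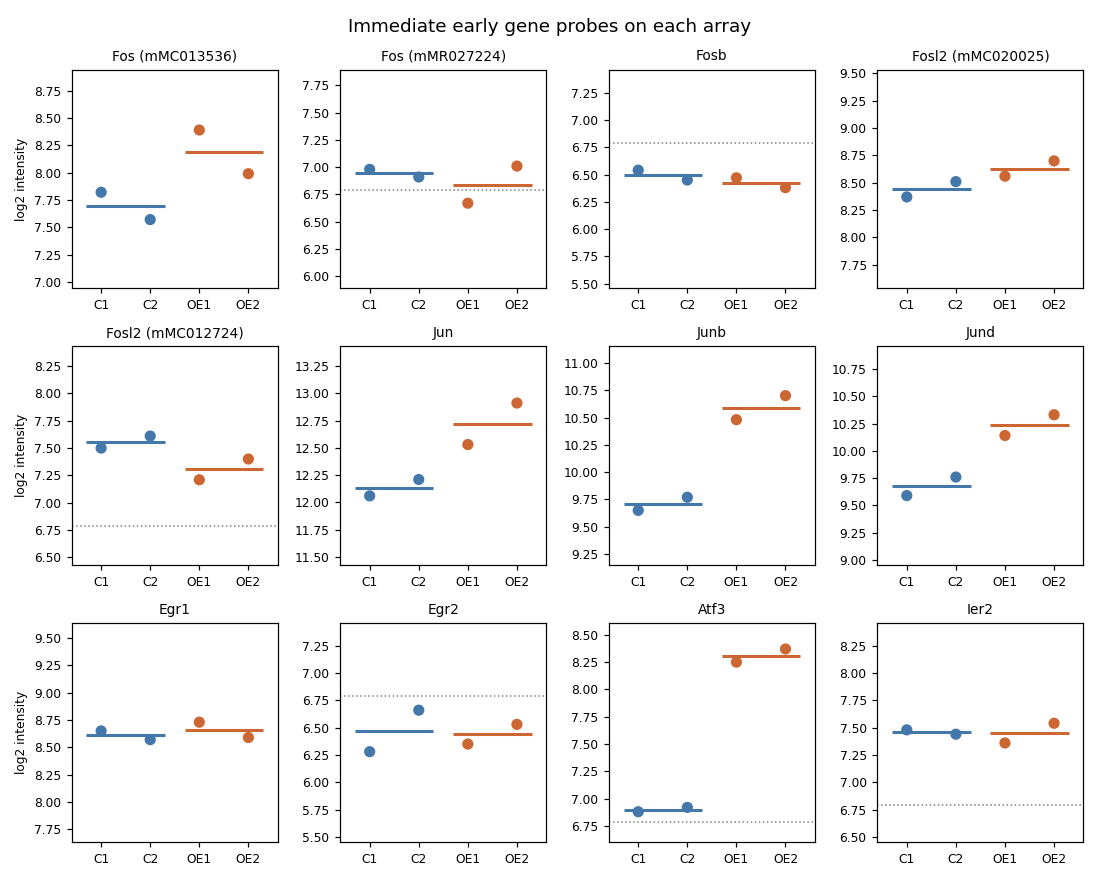
Log2 intensity of each of the 12 probes on control arrays 1 and 2 (C1, C2, blue) and Bmp4 overexpression arrays 1 and 2 (OE1, OE2, orange). Points are arrays, solid lines are group means, the dotted line is the lower quartile of all probes where it falls inside the panel, and each panel spans 2 log2 units. Atf3, Junb, Jund and Jun read higher on both overexpression arrays than on both controls, while the points of Egr1, Egr2, Ier2 and Fosb overlap.

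Every classical AP-1 dimer holds a Jun protein. Junb, a Jun protein that can restrain proliferation and competes with Jun for partners, read 9.65 and 9.77 on the control arrays and 10.48 and 10.70 on the overexpression arrays (log2 intensity). The groups did not overlap, and the gap between them was wider than that between arrays of either group. Its log2 fold change was 0.88 ± 0.12 (SE), or 1.84-fold, with a 95% interval of 0.57 to 1.19 (limma, adjusted p = 0.0152). Jund, the member of the subfamily that is expressed most steadily in many cells, read 9.59 and 9.76 in controls and 10.14 and 10.33 in overexpression samples. Both overexpression arrays lay above both controls, by a log2 fold change of 0.56 ± 0.13 (SE), or 1.47-fold (limma, adjusted p = 0.0414).

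Jun, the founding member and a target of JNK, read 12.06 and 12.21 in controls and 12.53 and 12.91 in overexpression samples. The groups did not overlap, but the overexpression arrays stood further apart than those of Junb or Jund. The log2 fold change of 0.59 ± 0.16 (SE), or 1.50-fold, was close to that of Jund, with a 95% interval of 0.19 to 0.98. It missed the adjusted threshold (limma, adjusted p = 0.0628). With an intensity trend in the variance the adjusted p of Jun was 0.0368. All 3 Jun genes thus read higher without overlap, as did 29.2% of all probes, and 2 of the 3 passed.

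Atf3 had the largest difference of the 12 probes. It encodes a stress-inducible bZIP protein that pairs with Jun proteins and often represses transcription. It read 6.88 and 6.92 on the control arrays and 8.25 and 8.37 on the overexpression arrays. The controls lay just above the lower quartile of all probes, and the overexpression arrays above the median. The log2 fold change was 1.41 ± 0.11 (SE), or 2.66-fold, with a 95% interval of 1.15 to 1.67 (limma, adjusted p = 0.00436). Atf3 was the only one of the 12 probes past the threshold in the series' design text, a 2-fold change with a p of 0.05, which 2.63% of all probes passed, 1.22% of all probes being higher and 1.41% lower. The size of its change was above that of 99.2% of all probes, and that of Junb was above 95.9%.

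**Figure D2:**
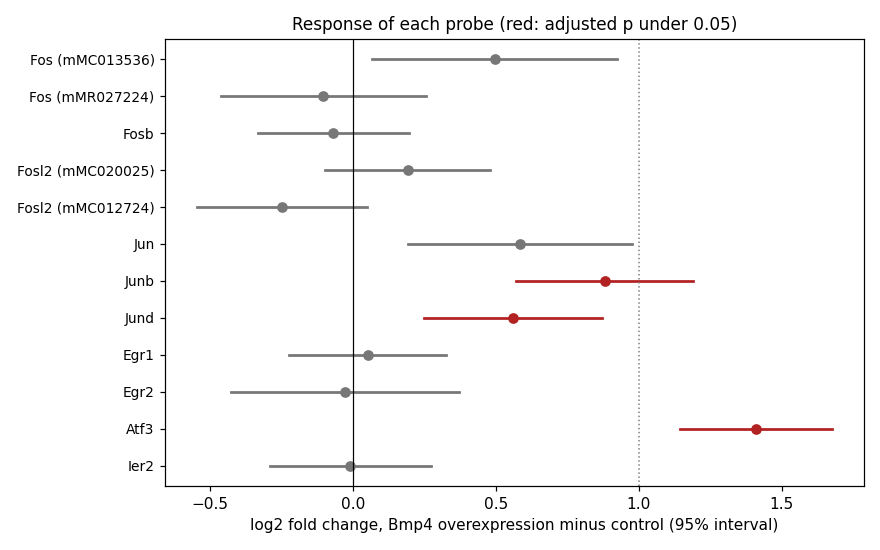
Log2 fold change, Bmp4 overexpression minus control, of the 12 probes, with 95% intervals from the limma fit (2 arrays per group). Red marks the 3 probes with an adjusted p under 0.05, Junb, Jund and Atf3, and the dotted line is a 2-fold rise, which the whole interval of Atf3 exceeds.

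The Fos proteins, which bind DNA only with a partner such as Jun, gave 5 probes, of which 0 passed in limma and 1 had an unadjusted p under 0.05. The brighter Fos probe (mMC013536) read 7.82 and 7.57 in controls and 8.39 and 7.99 in overexpression samples. The groups did not overlap, yet the 2 overexpression arrays differed by 0.40 log2 units, more than 91.9% of probes did between the same arrays. Its log2 fold change was 0.49 ± 0.17 (SE), with a 95% interval of 0.07 to 0.92 (limma, adjusted p = 0.112). The second Fos probe (mMR027224) read 6.98 and 6.91 in controls and 6.67 and 7.01 in overexpression samples, close to the lower quartile, and its groups overlapped. It gave a log2 fold change of -0.11 ± 0.14 (SE), and the mean of both Fos probes gave 0.20.

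Fosl2, a Fos-related protein of bone and cartilage cells, had probes that pointed in opposite directions. One (mMC020025) read 8.37 and 8.51 in controls and 8.56 and 8.70 in overexpression samples, a log2 fold change of 0.19 ± 0.12 (SE; limma, adjusted p = 0.313). The other (mMC012724) read 7.50 and 7.61 in controls and 7.21 and 7.40 in overexpression samples, a log2 fold change of -0.25 ± 0.12 (SE; limma, adjusted p = 0.211). Neither probe's groups overlapped, neither passed, and the mean of the 2 gave -0.03, so the table sets no direction for Fosl2. Fosb, a Fos protein best known from neurons, read 6.54 and 6.45 in controls and 6.47 and 6.38 in overexpression samples. All 4 of its values lay below the lower quartile, the groups overlapped, and the 95% interval of the log2 fold change ran from -0.34 to 0.20.

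The Egr genes and Ier2 did not pass, and the values of the groups overlapped for all 3. Egr1, a zinc finger factor and usual readout of ERK activity, read 8.65 and 8.57 in controls and 8.73 and 8.59 in overexpression samples. Its log2 fold change was 0.05 ± 0.11 (SE), with a 95% interval of -0.23 to 0.33 (limma, adjusted p = 0.796). Egr2, which patterns the hindbrain and drives myelination in Schwann cells, read 6.28 and 6.66 in controls and 6.35 and 6.53 in overexpression samples. Its arrays lay below the lower quartile, and the 0.38 between its control arrays exceeded the difference of 90.0% of probes. The 95% interval of its log2 fold change was -0.43 to 0.37. Ier2, an immediate early nuclear protein, read 7.48 and 7.44 in controls and 7.36 and 7.54 in overexpression samples, with overlapping groups and a 95% interval of -0.29 to 0.27.

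Taken by probe, 6 of the 12 read higher without overlap, 1 read lower without overlap and 5 overlapped. Over all probes 29.2% read higher and 31.0% lower without overlap. Whether the Jun genes and Atf3 differ in response from the Fos and Egr genes was not tested.

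**Figure D3:**
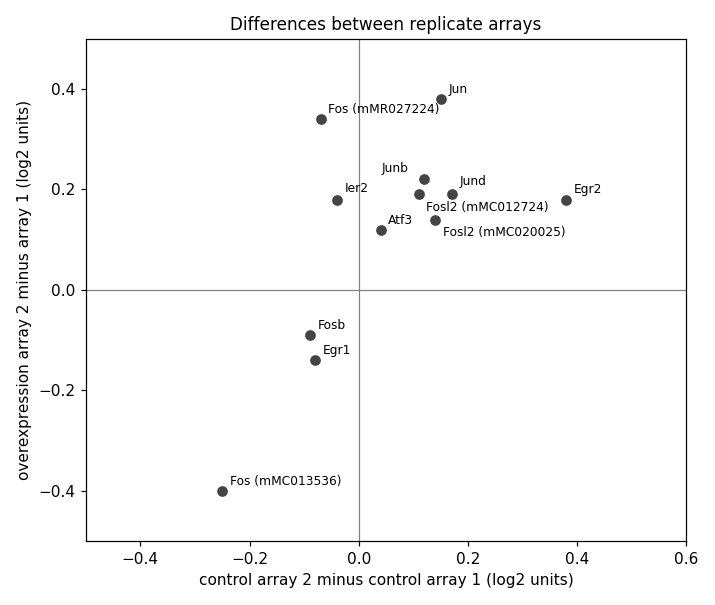
Difference between the 2 arrays of a group for each of the 12 probes, in log2 units, with controls on the horizontal axis and Bmp4 overexpression on the vertical axis. The brighter Fos probe (-0.40) and Jun (0.38) lie at opposite ends of the vertical axis, and Egr2 (0.38) stands furthest out among controls.

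The members also varied between arrays of the same group. Over all probes the median size of this difference was 0.13 log2 units in controls and 0.13 in overexpression samples. Between the overexpression arrays, the brighter Fos probe was 0.40 lower and Jun 0.38 higher on array 2 than on array 1, while the second Fos probe was 0.34 higher, so the Fos probes differed in direction there. The differences of Junb and Jund were 0.22 and 0.19, and that of Atf3 was 0.12, against 1.41 between the groups. In controls the differences of the 12 probes ran from -0.25 for the brighter Fos probe to 0.38 for Egr2.

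Other immediate early genes moved in both directions. Among the 39 genes measured, there were 7 that rose, 5 that fell and 27 with no call, and the median log2 fold change was 0.07. Of all named genes 7.39% rose and 9.54% fell by the same rule. An unadjusted p under 0.05 was found for 19 of the 39 and for 36.4% of all named genes. Gadd45b, a stress sensor that acts on p38 and JNK signalling, read 8.80 and 8.62 in controls and 10.73 and 10.79 in overexpression samples, a log2 fold change of 2.05 ± 0.11 (SE). Nfkbia, the inhibitor that holds NF-kappaB in the cytoplasm, read 10.87 and 10.56 in controls and 11.84 and 12.37 in overexpression samples, a log2 fold change of 1.39. Klf6, a zinc finger factor, rose by 0.95 on the log2 scale, and its other probe rose by 0.80. Dusp2, a phosphatase of MAP kinases, rose by 0.76. Ptgs2, the inducible cyclooxygenase, rose by 1.17 at the probe with the higher mean, from below the lower quartile, and by 0.79 with 50 added to the linear values. In controls that probe was the dimmer of the 2, with 6.15 and 6.12 against 6.44 and 6.12, and the other probe gave -0.24 and did not pass, so its count among the 7 rests on the choice of probe. The other genes that rose were Dusp1 and Csrnp1, by 0.44 and 0.46, and those that fell were Klf4, Ccn1, Gem, Plk3 and Socs3, by -0.57, -0.55, -0.55, -0.61 and -0.61. These 7 were named after their values were seen. Klf4 had 3 probes and Ccn1 had 2, and only the brightest of each is reported here. Egr3 and Egr4, the other Egr genes, gave -0.08 and -0.38 on the log2 scale without passing (limma, adjusted p = 0.715 and 0.0626). Myc had a log2 fold change of 0.02.

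**Figure D4:**
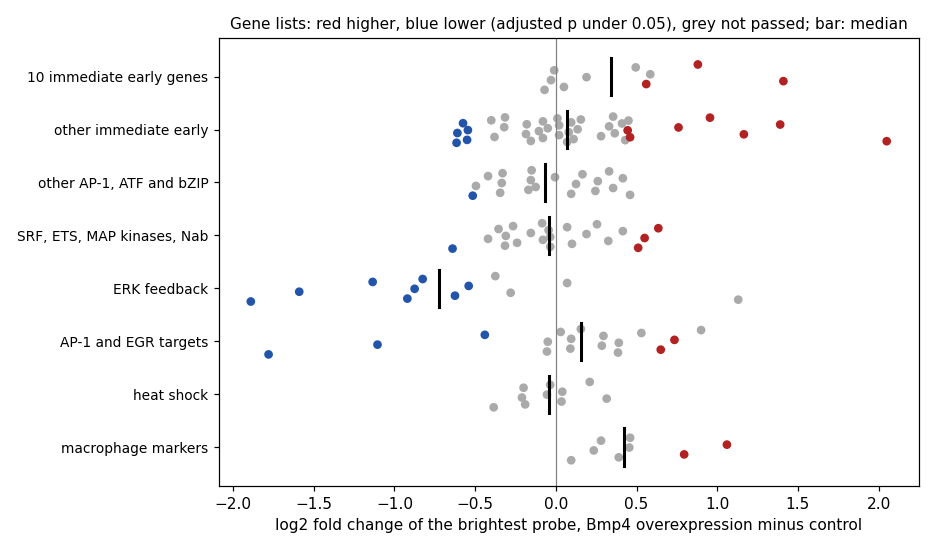
Log2 fold change of the brightest probe of each measured gene, Bmp4 overexpression minus control, in 8 gene lists. Red points were higher and blue points lower at an adjusted p of 0.05 in limma, grey points did not pass, and black bars are medians, which run from -0.73 for ERK feedback genes to 0.42 for macrophage markers and 0.34 for the 10 members.

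The remaining AP-1 and bZIP genes, which share the zipper by which Fos, Jun and ATF proteins pair, gave 1 call. Of all named genes 16.9% were called and 36.4% had an unadjusted p under 0.05. Of 20 measured genes, 1 fell and 0 rose (limma, adjusted), 9 had an unadjusted p under 0.05, with a median log2 fold change of -0.07. The gene that fell was Batf, an AP-1 protein of lymphocytes, with -0.52 (limma, adjusted p = 0.0493, and 0.0576 with a variance trend). Fosl1, the fourth Fos gene, had 0.10 and Jdp2, a repressor that pairs with Jun, had 0.24, and neither passed. Atf4 and Ddit3, which act with Atf3 in the stress response to unfolded proteins, had -0.15 and 0.16 and did not pass. Of the 10 measured heat shock and related stress genes 0 passed in limma and 2 had an unadjusted p under 0.05, and their median log2 fold change was -0.05. Hspa1a and Hspa8 lay below the lower quartile on all arrays, and Hsp90ab1 read 15.71 or more, near the maximum of 16. These levels limit what can be read for those genes.

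Among 22 measured genes upstream of the members, 3 rose, 1 fell and 18 did not pass. Of all named genes 7.39% rose and 9.54% fell. An unadjusted p under 0.05 was found for 11 of the 22 and for 36.4% of all named genes. Map2k7, a kinase that activates JNK, rose by 0.64 at its brighter probe, and its other probe gave 0.20 and did not pass. Map2k1 and Braf, kinases of the ERK cascade, rose by 0.55 and 0.51 on the log2 scale. Mapk10, the JNK of neurons, fell with -0.64 (limma, adjusted p = 0.0466, and 0.0508 with a variance trend), and its other probe gave -0.29 and did not pass. Nab1 and Nab2, which encode corepressors of Egr proteins, gave -0.27 and 0.10 on the log2 scale without passing.

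Of 12 measured feedback genes of the ERK pathway, 8 fell, 0 rose and 4 did not pass in limma by the brightest probe, where 9.54% of all named genes were lower. An unadjusted p under 0.05 was found for 11 of the 12 and for 36.4% of all named genes. Its median log2 fold change was -0.73. Dusp6, an ERK phosphatase, had -1.89, and Etv5 and Etv4, ETS transcription factors, had -1.59 and -0.88. Spry2 and Il17rd, inhibitors of growth factor receptor signalling, had -1.14 and -0.92. Spred2, another inhibitor, had 1.13 at its brighter probe (limma, adjusted p = 0.0517). Its other probe rose by 0.79 (limma, adjusted p = 0.0224), so the count of 0 that rose rests on the choice of probe. In the same arrays Egr1, which is also read as an ERK response, had 0.05, as given above. Among 17 measured genes known as AP-1 or Egr targets, 2 rose, 3 fell and 12 did not pass, while 16.9% of all named genes were called. An unadjusted p under 0.05 was found for 10 of the 17. Hbegf, a growth factor of the EGF family, and Tgfb1 rose by 0.74 and 0.65, while the matrix gene Spp1, the cyclin gene Ccnd1 and Pdgfa, a growth factor gene, had -1.78, -1.11 and -0.44. Pdgfa was named after its value was seen, and only the brighter of its 2 probes is reported here.

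By the likeness of their 4 values, centred on each gene's mean, the genes nearest to Atf3 among all 16637 were Ociad2, Dkk1, Yipf2, Slc2a13 and Thbs3. Their distances from Atf3 were 0.087, 0.093, 0.11, 0.112 and 0.124 log2 units over the 4 arrays. With 2 groups of 2 arrays, such a distance largely reflects a log2 fold change of like size. It was 1.32 to 1.48 for these genes and 1.41 for Atf3. Shared regulation was not tested. Dkk1, a secreted WNT antagonist, read 9.56 and 9.53 in controls and 10.94 and 10.95 in overexpression samples.

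Some markers of cell types other than mesenchyme also differed between the groups. Over all named genes 7.39% were higher and 9.54% lower by the adjusted rule, and 36.4% had an unadjusted p under 0.05. In bulk tissue, more cells of a type and more RNA per cell cannot be told apart. All 8 macrophage markers measured had log2 fold changes above 0, and 2 of them, Adgre1 and Tyrobp, rose, by 1.06 and 0.80. Their summed linear intensity ran from 2786 to 2960 in controls and from 3872 to 4335 in overexpression samples, and Ptprc lay below the lower quartile on all arrays. Of 6 muscle markers 2 rose, Des and Actc1, by 0.69 and 0.46, with Actc1's other probe at -0.09. Their summed intensity ran from 4717 to 4817 in controls and from 6337 to 6658 in overexpression samples. Actc1 made up 58% of the muscle sum in controls. Of 8 epithelial markers 3 rose and 2 fell. Krt8, Krt18 and Cdh1 had 1.23, 1.20 and 0.92, and Krt14 and Krt5 had -0.79 and -0.46, and Krt5 was named after its value was seen. Their summed intensity ran from 35942 to 37559 in controls and from 29259 to 30571 in overexpression samples, and Krt14 alone made up 77.2% of it in controls, while 5 of the 8 markers had log2 fold changes above 0. Cldn5 was the 1 of 6 endothelial markers that rose, by 0.56, and the summed intensity of the list ran from 6504 to 6620 in controls and from 7852 to 8222 in overexpression samples. Of 7 neuronal markers 0 passed in limma and 3 had an unadjusted p under 0.05, and of 5 crest and Schwann markers 0 passed and 1 had an unadjusted p under 0.05. The summed neuronal intensity ran from 25498 to 35638 in controls and from 48711 to 50354 in overexpression samples. Elavl3 made up 91.1% of it in controls. The crest and Schwann list covers a lineage that uses Egr2. Its sum ran from 3603 to 3941 in controls and from 3056 to 3064 in overexpression samples. Ngfr made up 66.0% of that sum in controls. Of 4 erythroid markers 1 fell, Alas2, with -0.58. The other 3, globin genes, read 15.75 or more on every array, near the ceiling of 16, so that no change in erythroid RNA can be read from the summed intensity of 197127 to 203444 in controls and 191628 to 195284 in overexpression samples. The part of any of these cell types in the rise of Atf3, Junb and Jund was not tested.

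The calls rest on 2 arrays per group. Without any 1 of the 4 arrays, limma called 0 of the 12 probes and 0 of all probes at the adjusted threshold, with 1 residual degree of freedom, and Atf3, Junb and Jund had an unadjusted p under 0.05 in each of these 4 fits. So did 20.1% to 26.6% of all probes, so this count is no sign that the members are more stable than other genes.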

How the data were processed

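Per the labels' protocols, RNA of 4 mouse mandible samples was amplified with an aminoallyl nucleotide and labelled with Cy5, 1 sample per array. The deposited values were taken as log2 intensities, because their maximum of 16 is the top of a 16-bit scale. All 4 columns held the same sorted values, so the authors had deposited quantile-normalised data in which a common shift of most genes is removed. Scanner, background correction and detection calls are not given in the labels.

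The platform annotation gave 1 symbol to 21020 of 29922 probes. RefSeq (GRCm38.p6) synonyms brought 3410 of them up to date, and 52 kept an unmatched symbol. The brightest probe, by its mean over all arrays, stood for a gene in lists. Levels of different probes were set against each other for that choice, in the summed intensities and in the shares of those sums. No test compared the levels of different probes.

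Every probe was fitted in R 4.3.3 with limma 3.58.1 (lmFit, eBayes without trend, two-sided), with Benjamini-Hochberg adjustment across the table and 2 residual degrees of freedom. The fit was also run on 20 simulated tables with independent noise and 200 changed probes each, against 4427 probes called here. Such tables hold no noise shared between arrays, so no conclusion is drawn from them. An exact permutation test with 2 arrays a group has a smallest p of 0.333. The number of arrays limits the precision. The 10 members and the 15 gene and marker lists were chosen with earlier results of these data known. Named list genes were up to 4 with the smallest p among those called, any with a 2-fold difference, and the 5 nearest in pattern to the member with the smallest p. Alternatives varied normalisation, scale, filters, variance model, replicate block and arrays left out.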

Additional observations from a re-analysis of the deposited data

How the results depend on the processing

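The calls of Atf3, Junb and Jund held when arrays were weighted and when 50 was added to the linear value. They also held with a variance trend and without probes under the lower quartile. Quantile normalisation and median centring changed no call, which was fixed in advance because all 4 columns held the same sorted values. The variance trend added Jun. Leaving out probes under the median took Atf3 out of the test, so that 0 members passed the 2-fold rule. With the replicate number as a block, 0 of all probes and 0 member probes were called, and the lowest adjusted p was 0.0745, with 1 residual degree of freedom. Arrays of the same number had deviations from their group means that correlated over all probes with r = -0.0711. With 2 arrays per group this value is the same for both numbers. The labels do not state whether the numbers pair the arrays, and the correlation does not settle it. Leaving out 1 array at a time gave 0 calls over all probes and 0 member probes higher each time, with lowest adjusted p-values of 0.138 to 0.191. The log2 fold changes then ran from 1.35 to 1.47 for Atf3, 0.77 to 0.99 for Junb and 0.465 to 0.655 for Jund. Those of 4 probes near 0 changed sign, running from -0.1 to 0.08 for Ier2, -0.22 to 0.16 for Egr2, -0.02 to 0.12 for Egr1 and -0.275 to 0.065 for the second Fos probe. Averaging both probes moved Fos to 0.195 and Fosl2 to -0.03. Signals near the lower quartile limit what can be read for Fosb, Egr2 and the second Fos probe.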
